A study of Mus musculus with 36 samples.

Results

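The stretch between day 5 and day 8 of embryoid body differentiation was examined in mouse embryonic stem cells that lack the long noncoding RNA LncCPR. It rests on 6 of the 36 libraries of the series, 3 from LncCPR-/- embryoid bodies at day 8 and 3 from LncCPR-/- embryoid bodies at day 5, taken by genotype and time point. Both genotypes share the background of AB2.2, an established line of mouse embryonic stem cells. LncCPR was removed in AB2.2 cells with Cas9 and a pair of guide constructs placed on either side of the gene, after which single cells were sorted, genotyped and expanded. How many knockout lines stand behind the libraries is not stated, so the 3 knockout libraries of a day may come from 1 clone. The control libraries, also 3 at day 8 and 3 at day 5, are AB2.2 cells differentiated without the deletion. Embryoid bodies are hanging-drop aggregates grown without leukemia inhibitory factor (LIF), the cytokine that holds stem cells undifferentiated, and they were lysed whole, so each library mixes all cell types present. The labels do not say that libraries of a group came from separate cultures, and p-values then measure only the spread between these libraries.

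In the mouse embryo, cells leaving pluripotency pass through the primitive streak, where the T-box factors T and Eomes act downstream of Nodal and Wnt signals. Part of the mesoderm formed there turns on Mesp1 and then the heart transcription factors (Nkx2-5, Gata4, the Hand factors, Mef2c), which drive the genes of the contractile apparatus, the sarcomere. Embryoid bodies run through these steps in the same order, alongside extraembryonic endoderm, endothelium and blood. The series follows this path in both genotypes, and the comparison here shows what the knockout cells turned on and off in its middle stretch.

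The values are deposited FPKM, fragment counts divided by transcript length and by the mapped library total. A change is the log2 of day 8 over day 5 on FPKM + 1, tested with limma, a linear model whose variance estimates are shared across genes, with Benjamini-Hochberg adjustment over all genes tested and a threshold of 0.05. Each day was deposited as its own table, and it is not stated whether the tables were scaled together, so day and table cannot be told apart. All changes were therefore also computed after rescaling each library by its median ratio to the others. As deposited, the median change over 12747 tested genes was -0.18, and rescaling brought it to 0.00. A gene is said to have risen or fallen only where it passed the threshold in the same direction on both scales. With 3 libraries on each side, the lowest p of an exact permutation test is 0.1, and the p-values given are those of limma.

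A gene was tested if it averaged at least 1 FPKM in these 6 libraries. Of 12747 such genes, 1604 (12.6%) rose and 1997 (15.7%) fell by day 8. As deposited alone, 1610 (12.6%) were higher and 3142 (24.6%) lower, and after rescaling 2442 (19.2%) were higher and 1998 (15.7%) lower of 12750, so which direction holds more genes depends on the scaling. Both directions together came to 37.3% as deposited and 34.8% after rescaling. Large changes were mostly rises on both scales. As deposited, 684 genes (5.37%) were higher by over 2-fold on FPKM + 1 and 444 (3.48%) lower, and after rescaling 850 (6.67%) were higher and 275 (2.16%) lower. Low genes need more than a 2-fold change in FPKM to be counted here. The day 8 libraries all lay above the day 5 libraries for 16.9% of the genes tested and all below them for 34.9%. Leaving out knockout day 5 replicate 1 lowered the 4752 genes past the threshold as deposited to 3022, and leaving out knockout day 5 replicate 3 lowered them to 2917.

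**Figure D1:**
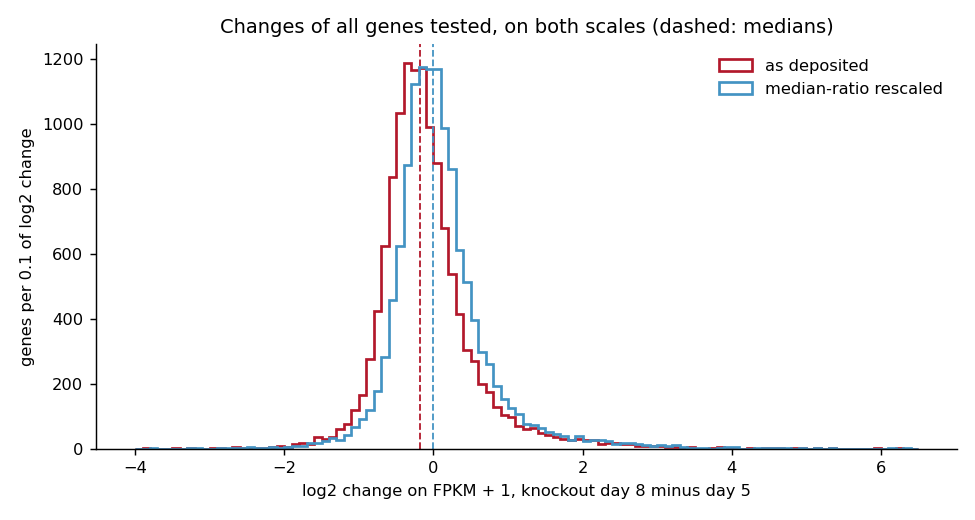
Histogram of the log2 change, knockout day 8 minus day 5, over all genes tested, as deposited and after median-ratio rescaling, in bins of 0.1, with dashed lines at the medians (-0.18 and 0.00). The right tail reaches past 6 and the left tail ends near -3.88, and rescaling moves the whole curve to the right.

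The FPKM of the 6 libraries summed to between 331541 and 403675, the absolute depth is unknown, and knockout day 8 replicate 1 was the shallowest, with a relative depth of 0.546 against knockout day 5 replicate 1. That library held 69239 FPKM of the mitochondrial ribosomal RNA mt-Rnr2, 17.2% of its sum, where the other 5 were listed at 0. The 10 most abundant genes took 30.2% of its sum, 25.2% in day 8 replicate 3, and 11.4% to 12.7% in the other 4. Across genes, which are not independent replicates, pairs of day 8 libraries had a Pearson correlation of 0.967 to 0.969 (log2 values) and pairs of day 5 libraries at 0.985 to 0.986. Cufflinks listed 0 for Stard7, Zfp281 and 1110012J17Rik in 1 day 5 library each, where the other 5 libraries held at least 23.9 FPKM. No entry is named LncCPR. The transcript 4930500J02Rik, named in the panel because of its level in earlier results of these data, was at 0 FPKM in all 3 day 8 and at 0.280, 0 and 0 FPKM in the day 5 knockout libraries, against 9.33 ± 0.993 FPKM at day 8 and 22.0 ± 2.92 FPKM at day 5 in control.

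The 12 largest rises without overlap between the days, with at least 5 FPKM on the higher day, held 5 muscle genes. The largest was that of Igfbp5, an insulin-like growth factor binding protein, at 165, 139.9 and 152 FPKM at day 8, against 1.08, 1.15 and 0.905 FPKM at day 5 (log2 change 6.22, SE 0.12, adjusted p = 1.14e-08). Igf2, the imprinted fetal growth factor, was listed at 579, 512 and 646 FPKM at day 8, against 8.18, 10.4 and 6.39 FPKM at day 5 (log2 change 5.98, SE 0.17, adjusted p = 8.23e-08). Smooth muscle actin, Acta2, which early heart muscle also uses, reached 319.9, 354 and 266 FPKM at day 8, against 6.35, 7.36 and 9.31 FPKM at day 5 (log2 change 5.18, SE 0.16, adjusted p = 1.29e-07). In each of these, the lowest day 8 library lay far above the highest day 5 library, and the libraries of a day stayed close together. Capn6, a calpain family member, rose by 5.16 and Pmp22, a membrane protein best known from myelin, by 4.96 on the log2 scale. Postn, a secreted matrix protein of mesenchyme, rose by 4.48, with 29.3 ± 3.19 FPKM at day 8 and 0.355 ± 0.144 FPKM at day 5 (SD, n = 3 each). Afp, alpha-fetoprotein of yolk sac endoderm, rose by 4.25. The sarcomere genes Myl4, Myh7, Myl7 and Tnnt2 were also among the 12 and are described with their group. The remaining 1 of the 12, n424047, is an entry for which no annotation was found. It stood at 1266, 2267 and 29618 FPKM at day 8, against 68.9, 646 and 267 FPKM at day 5, with most of it in 1 day 8 library, and without knockout day 5 replicate 1 it no longer passed (adjusted p = 0.0582). Without day 8 replicate 3 its log2 change was 2.88. In control at day 8 it stood at 1535, 1247 and 37354 FPKM, again with most in replicate 3. The cause was not tested.

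Among the 12 largest falls, Foxj1, the transcription factor that drives motile cilia genes, had 1.22, 0.994 and 1.73 FPKM at day 8, against 33.8, 33.0 and 31.8 FPKM at day 5 (log2 change -3.88, SE 0.15, adjusted p = 3.51e-07). Cer1, a secreted antagonist of Nodal, BMP and Wnt, had 10.2, 10.1 and 8.40 FPKM at day 8, against 122, 116 and 113 FPKM at day 5 (log2 change -3.48, SE 0.12, adjusted p = 2.03e-07). The day 5 libraries of both genes lay within a narrow band, and no day 8 library came near it. Nme5, Ccno and Rsph4a, which serve motile cilia or the making of their basal bodies, fell by 3.26, 2.66 and 2.64 on the log2 scale. Rsph4a, a radial spoke protein, averaged 0.189 FPKM at day 8 against 6.35 FPKM at day 5. Alox15, a lipoxygenase, fell by 2.98, Slc27a2, a fatty acid transporter, by 2.88 and Upp1, uridine phosphorylase, by 2.87. T, Wnt8a, Tdgf1 and Dppa5a complete the 12 and follow with their groups.

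**Figure D2:**
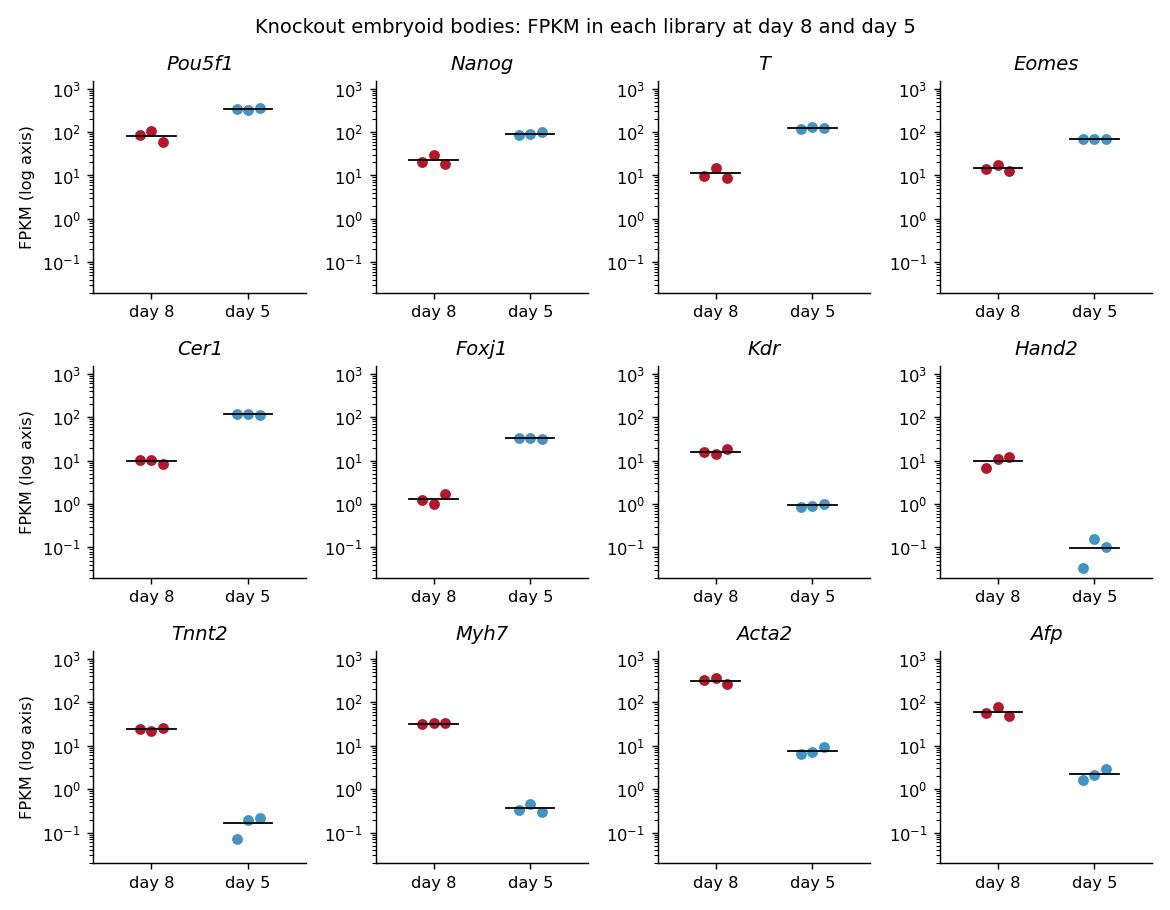
FPKM on a log axis of 12 genes in the 3 day 8 and 3 day 5 knockout libraries, each point a library and each line the mean of 3. Pou5f1, Nanog, T, Eomes, Cer1 and Foxj1 were lower in every day 8 library than in every day 5 library, and the 6 genes from Kdr to Afp were higher in every one.

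The genes were then read through 41 lists of stage, cell type and pathway genes. Counts over a list describe it and are not a test of it, because a gene that passed the filter of 1 FPKM only through the day on which it is high had to differ. The p-value of such a gene is no support for its change. This holds for every named gene that averaged under 1 FPKM on its lower day, such as Hand2, Isl1, Tnnt2, Myh7 and Cdh5. Each count can be read against the 12.6% of all tested genes that rose and the 15.7% that fell, and each list median against the median of -0.18 over all genes tested. In whole embryoid bodies, fewer cells of a type and less RNA per cell cannot be told apart.

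Pluripotency genes fell but were still measured at day 8. Of the 25 on the list, 23 were tested, 15 fell and 0 rose, with a median change of -0.90. Pou5f1, the core factor Oct4, had 85.5, 105 and 57.9 FPKM at day 8, against 348, 319 and 355 FPKM at day 5 (log2 change -2.07, SE 0.20, adjusted p = 7.79e-05). Nanog had 20.1, 29.3 and 18.4 FPKM at day 8, against 87.4, 88.5 and 100.4 FPKM at day 5 (log2 change -2.0, SE 0.17, adjusted p = 3.35e-05). For both genes the days did not overlap, and day 8 replicate 2 held the highest day 8 level. Tdgf1, the Nodal coreceptor Cripto, averaged 56.0 ± 10.1 FPKM at day 8 and 422 ± 25.5 FPKM at day 5, and Dppa5a, a stem cell RNA-binding protein, 10.8 ± 2.17 FPKM at day 8 and 73.3 ± 7.44 FPKM at day 5. They fell by 2.90 and 2.66. Of the genes that mark the later, primed epiblast, 12 were tested, 7 fell and 1 rose, with a median of -0.80. The growth factor Fgf5 averaged 21.9 ± 2.76 FPKM at day 8 and 89.4 ± 1.58 FPKM at day 5 and fell by 1.99, and the de novo methyltransferase Dnmt3b fell by 1.70.

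Primitive streak genes fell almost without exception. Of 17 on the list, 13 were tested, 12 fell and 0 rose, with a median change of -1.81. T, the brachyury factor of the streak, had 9.57, 14.9 and 8.85 FPKM at day 8, against 116, 133 and 127 FPKM at day 5 (log2 change -3.41, SE 0.18, adjusted p = 2.23e-06). Day 8 replicate 2 held the most T of its day, and it still lay far below every day 5 library. Eomes, the T-box factor of early mesendoderm, had 14.3, 17.4 and 12.5 FPKM at day 8, against 69.6, 70.2 and 70.9 FPKM at day 5 (log2 change -2.19, SE 0.14, adjusted p = 4.94e-06). Mixl1, a homeobox factor of the streak, averaged 2.87 ± 0.160 FPKM at day 8 and 16.6 ± 1.61 FPKM at day 5 and fell by 2.18. Wnt8a, a streak Wnt ligand, fell by 2.88 and Gsc, goosecoid of the organizer, by 2.52.

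The signals that pattern the streak split by pathway. All 11 Nodal pathway genes were tested, 7 fell and 2, Smad7 and the protease gene Furin, rose (median -0.86). Without day 5 replicate 1 or 2 or day 8 replicate 1 or 2, 1 was higher. The ligand Nodal averaged 3.75 ± 1.09 FPKM at day 8 and 15.4 ± 2.05 FPKM at day 5 and fell by 1.81, and its antagonist Lefty1, with 1.45 ± 0.443 FPKM at day 8 and 9.15 ± 1.52 FPKM at day 5, fell by 2.06. BMP genes moved the other way, with 11 of 14 tested higher and 1 lower (median 1.09). The ligand Bmp4 had 15.9, 17.8 and 15.0 FPKM at day 8, against 1.80, 0.927 and 0.981 FPKM at day 5 (log2 change 2.97, SE 0.17, adjusted p = 3.76e-06). Its day 8 libraries were all above its day 5 libraries, as were those of the ligand Bmp5, which rose by 3.00. Id2, a direct target, averaged 29.7 ± 3.19 FPKM at day 8 and 2.86 ± 0.0921 FPKM at day 5 and rose by 2.99. The antagonist chordin, Chrd, was the 1 member that fell, by 2.59, with 0.491 FPKM at day 8 against 7.98 FPKM at day 5. Of 16 Wnt genes tested, 4 rose and 6 fell. The ligand Wnt5a rose by 1.83, while the feedback target Axin2 fell by 1.20 and the target Sp5 by 1.69. Of 14 FGF genes tested, 4 rose and 7 fell. Fgf8, a streak ligand, fell by 1.75, the feedback phosphatase Dusp6 by 1.23, and Fgf15 rose by 1.16. In the retinoic acid pathway, 4 of 8 tested genes rose and 1 fell. The receptor Rarb rose by 2.59 and the binding protein Crabp2 by 1.76, and the reductase Dhrs3 fell by 1.30.

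**Figure D3:**
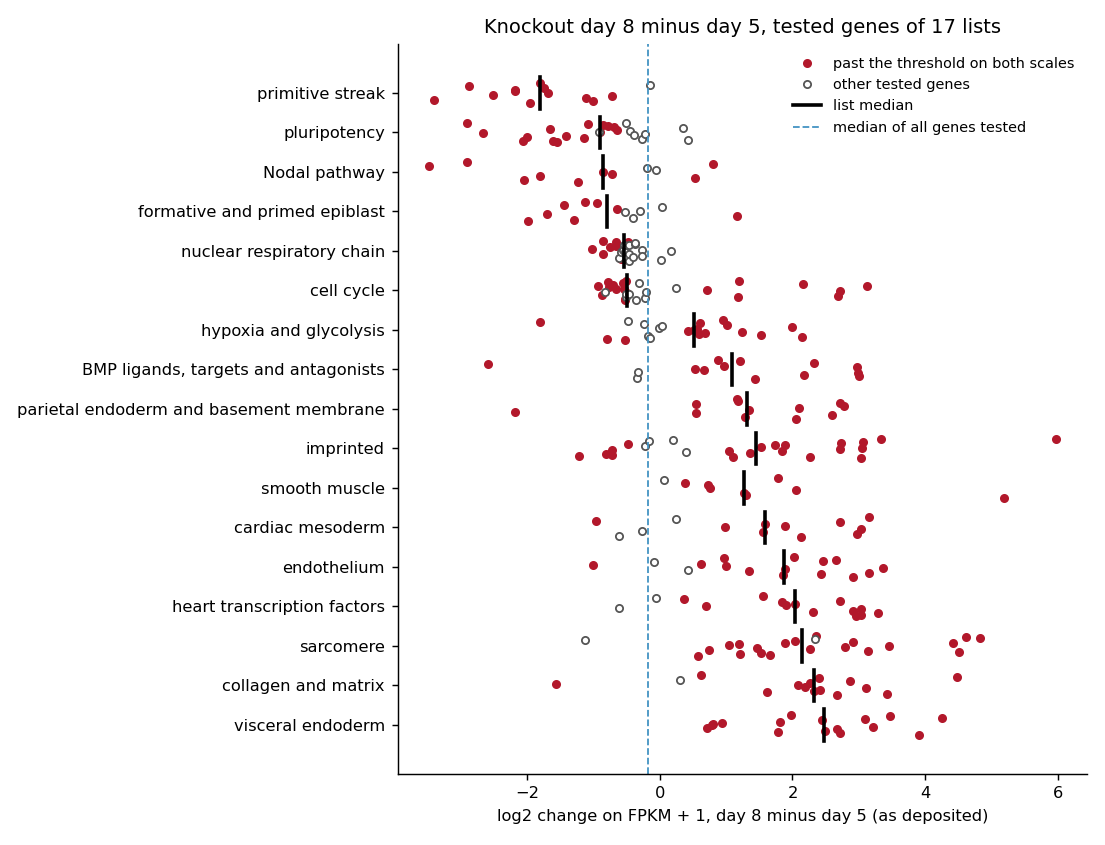
Log2 change on FPKM + 1, knockout day 8 minus day 5, of the tested genes of 17 lists, as deposited. Filled points passed the threshold on both scales, open points did not, black bars are list medians, and the dashed line is the median of all genes tested (-0.18). List medians run from -1.81 for primitive streak to 2.47 for visceral endoderm.

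Most cardiac mesoderm genes rose, and Mesp1 did not pass the test. Of 14 on the list, 13 were tested, 9 rose and 1, the Wnt enhancer Rspo3, fell, with a median of 1.59. Of these 13, 6 averaged under 1 FPKM at day 5. Kdr, the VEGF receptor of mesodermal progenitors, had 15.6, 14.4 and 18.6 FPKM at day 8, against 0.875, 0.893 and 1.01 FPKM at day 5 (log2 change 3.15, SE 0.14, adjusted p = 1.07e-06). Its groups were well apart. Mesp1, which opens cardiac mesoderm formation, had 0.538, 1.56 and 0.737 FPKM at day 8, against 1.06, 1.91 and 1.00 FPKM at day 5 (log2 change -0.27, SE 0.24, adjusted p = 0.394), and the days overlapped. Pdgfra, a receptor of mesodermal and mesenchymal cells, likewise overlapped, with 4.21 ± 0.378 FPKM at day 8 and 3.42 ± 0.539 FPKM at day 5 (log2 change 0.24, adjusted p = 0.23).

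Heart transcription factors rose, most of them from under 1 FPKM. Of 20 on the list, 15 were tested, 13 rose and 0 fell, with a median of 2.04, and 11 of the 15 averaged under 1 FPKM at day 5. Hand2, a basic helix-loop-helix factor of the heart fields, had 6.93, 11.0 and 12.0 FPKM at day 8, against 0.0335, 0.160 and 0.101 FPKM at day 5 (log2 change 3.29, SE 0.20, adjusted p = 4.94e-06). Hand1 had 14.2, 6.39 and 13.1 FPKM at day 8, against 0.664, 0.262 and 0.380 FPKM at day 5 (log2 change 3.03, SE 0.27, adjusted p = 3.89e-05). For both genes every day 8 library exceeded every day 5 library, and Hand1 was lowest at day 8 in replicate 2. Isl1, of the second heart field, averaged 8.46 ± 0.842 FPKM at day 8 and 0.149 ± 0.0372 FPKM at day 5 and rose by 3.04. Mef2c averaged 7.59 ± 1.59 FPKM at day 8 and 0.135 ± 0.123 FPKM at day 5, Myocd, the coactivator myocardin, 7.94 ± 0.761 FPKM at day 8 and 0.147 ± 0.0987 FPKM at day 5, and Nkx2-5 2.92 ± 0.520 FPKM at day 8 and 0.0443 ± 0.0767 FPKM at day 5, and they rose by 2.91, 2.96 and 1.90. Gata4, already present at day 5, averaged 12.0 ± 1.25 FPKM at day 8 and 3.41 ± 0.537 FPKM at day 5 and rose by 1.56. Gata6 was lower as deposited (-0.62, adjusted p = 0.0117) but not after rescaling (adjusted p = 0.0861). Tbx5, of the first heart field, averaged 0.516 ± 0.112 FPKM at day 8 and 0.0432 ± 0.0297 FPKM at day 5 and was too low to be tested.

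Sarcomere genes rose, again mostly from low levels. Of 28 on the list, 22 were tested, 20 rose and 0 fell, with a median change of 2.15. Of these 22, 13 averaged under 1 FPKM at day 5. The remaining 6 genes stayed below a mean of 1 FPKM over the 6 libraries.

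The sequences just upstream of sarcomere genes are shown because the genes moved together and because several carry a CArG box there. The CArG box is the element bound by serum response factor, known from muscle gene promoters, and its pattern reads the same on both strands. The windows and coordinates are those of RefSeq on build GRCm38.p6, while the deposited values were made on mm9. In the 250 bases before the start sites, it was found in 7 of the 20 sarcomere genes that rose, namely Myl7, Nebl, Actc1, Myl3, Myom1, Acta1 and Ldb3. Over the list, 7 of the 25 genes with a window held one (28.0%), against 439 of 27025 genes in all (1.62%). TATAAA, the common TATA box, was in 5 of the 25 (20%), against 14.3% of all genes, and a MEF2 site in 2 (8.00%), against 3.42%, both searched on both strands. On the smooth muscle list, a CArG box was in 1 of the 9 genes with a window (11.1%). A match is a description of letters, not a shown binding site. Among the 7, the first 4 by change that have a single start site are printed 5′ to 3′ on the gene's strand, with the CArG box in capitals. Myl7 lies at chr11:5898783-5899032 on the minus strand, Actc1 at chr2:114052876-114053125 on the minus strand, Myl3 at chr9:110763428-110763677 on the plus strand and Myom1 at chr17:71019307-71019556 on the plus strand.
Myl7: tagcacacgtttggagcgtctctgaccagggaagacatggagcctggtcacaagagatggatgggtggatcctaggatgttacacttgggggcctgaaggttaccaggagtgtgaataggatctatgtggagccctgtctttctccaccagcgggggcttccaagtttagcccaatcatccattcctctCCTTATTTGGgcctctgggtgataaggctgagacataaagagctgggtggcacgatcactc
Actc1: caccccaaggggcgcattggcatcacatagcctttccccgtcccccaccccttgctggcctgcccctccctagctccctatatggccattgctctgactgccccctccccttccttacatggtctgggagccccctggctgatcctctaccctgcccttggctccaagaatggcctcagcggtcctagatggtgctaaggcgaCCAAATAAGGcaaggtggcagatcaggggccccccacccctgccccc
Myl3: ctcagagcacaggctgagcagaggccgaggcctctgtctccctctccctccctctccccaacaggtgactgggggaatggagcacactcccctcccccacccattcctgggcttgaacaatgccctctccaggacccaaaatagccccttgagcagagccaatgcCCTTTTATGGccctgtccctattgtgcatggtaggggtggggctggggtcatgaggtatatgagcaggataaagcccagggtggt
Myom1: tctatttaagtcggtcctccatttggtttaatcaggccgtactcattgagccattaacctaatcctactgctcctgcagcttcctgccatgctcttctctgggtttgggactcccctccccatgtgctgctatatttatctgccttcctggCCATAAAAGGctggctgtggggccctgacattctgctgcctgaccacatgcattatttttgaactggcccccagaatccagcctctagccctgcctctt
The box begins 61 bases before the start of Myl7, 47 before that of Actc1, 85 before that of Myl3 and 99 before that of Myom1.

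The 3 largest rises on the list were those of the myosin genes Myl4, Myh7 and Myl7. Myh7, the slow heavy chain, had 31.3, 33.0 and 32.9 FPKM at day 8, against 0.331, 0.454 and 0.294 FPKM at day 5 (log2 change 4.62, SE 0.13, adjusted p = 7.53e-08). Myh6, the alpha heavy chain, had 13.9, 9.67 and 11.4 FPKM at day 8, against 0.412, 0.494 and 0.389 FPKM at day 5 (log2 change 3.13, SE 0.16, adjusted p = 2.16e-06). Neither gene overlapped between the days, and Myh7 was nearly equal in its 3 day 8 libraries. Among light chains, Myl4 had 41.5, 80.3 and 69.0 FPKM at day 8, against 0.869, 1.93 and 0.914 FPKM at day 5 (log2 change 4.83, SE 0.26, adjusted p = 2.29e-06), and Myl7, the atrial light chain with the first promoter above, had 26.1, 50.1 and 39.0 FPKM at day 8, against 0.666, 1.03 and 0.395 FPKM at day 5 (log2 change 4.51, SE 0.23, adjusted p = 2.16e-06). Day 8 replicate 1, the shallowest library, was the lowest of its day for both, and it still lay above every day 5 library. In the thin filament, Tnnt2, cardiac troponin T, had 23.9, 22.1 and 25.6 FPKM at day 8, against 0.0725, 0.198 and 0.217 FPKM at day 5 (log2 change 4.42, SE 0.14, adjusted p = 1.29e-07). Actc1, cardiac actin, was already present at day 5, with 46.0, 66.3 and 44.9 FPKM at day 8, against 8.46, 9.61 and 9.72 FPKM at day 5 (log2 change 2.36, SE 0.16, adjusted p = 8.34e-06). Its day 8 libraries lay above all of day 5, by the smallest ratio of these 6 genes. Tnni3, adult-type cardiac troponin I, was the 1 gene of the list that was lower as deposited, with 0.857, 3.53 and 0.493 FPKM at day 8, against 5.14, 3.13 and 4.11 FPKM at day 5 (log2 change -1.12, SE 0.37, adjusted p = 0.0379). The days overlapped, rescaling ended the call (adjusted p = 0.0632), and it was kept without 1 library only where day 8 replicate 2 was left out. Myl2, the ventricular light chain, averaged 1.54 ± 0.688 FPKM at day 8 and 0.229 ± 0.164 FPKM at day 5, under the filter.

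Around the sarcomere, the secreted and stress proteins Ankrd1, Cryab and Nppb rose (3 of 4 tested). Ankrd1, a sarcomere-linked stress protein, averaged 27.1 ± 2.43 FPKM at day 8 and 0.473 ± 0.136 FPKM at day 5 and rose by 4.25, and Nppb, the B-type natriuretic peptide, averaged 5.16 ± 0.869 FPKM at day 8 and 0.394 ± 0.342 FPKM at day 5 and rose by 2.17. Nppa, its atrial relative, stayed low, at 0.598 ± 0.379 FPKM at day 8 and 0.0185 ± 0.0320 FPKM at day 5, and was not tested. Of 18 calcium handling and ion channel genes only 6 reached the filter, and 4 of them rose. The sodium-calcium exchanger Slc8a1 had 11.4, 11.9 and 9.75 FPKM at day 8, against 1.96, 2.30 and 1.34 FPKM at day 5 (log2 change 2.08, SE 0.17, adjusted p = 2.05e-05), with no overlap. Jph2, which couples membranes for calcium release, rose by 1.39 and the gap junction protein Gja1 by 0.74. Of 9 smooth muscle genes tested, 8 rose and 0 fell (median 1.28). After Acta2, the largest were Cald1, caldesmon, with 310.3 ± 35.4 FPKM at day 8 and 74.6 ± 13.1 FPKM at day 5, and Tagln, transgelin, with 211 ± 37.2 FPKM at day 8 and 60.6 ± 11.4 FPKM at day 5, which rose by 2.05 and 1.79. None of the 6 skeletal muscle regulators, Myod1 among them, reached a mean of 1 FPKM.

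Most endothelial genes rose, while the embryonic globins stayed under 1 FPKM. Of 19 endothelial genes, 16 were tested, 13 rose and 1, Etv2, fell, with a median of 1.88. Of the 16, 9 averaged under 1 FPKM at day 5. Cdh5, VE-cadherin, had 10.2, 9.28 and 10.6 FPKM at day 8, against 0.0579, 0.0173 and 0.113 FPKM at day 5 (log2 change 3.37, SE 0.14, adjusted p = 7.79e-07). Cd34 averaged 9.17 ± 2.22 FPKM at day 8 and 0.330 ± 0.0961 FPKM at day 5 and Emcn, endomucin, 5.62 ± 0.330 FPKM at day 8 and 0.0501 ± 0.0458 FPKM at day 5, and they rose by 2.91 and 2.66. Pecam1 was present at both days, with 7.65 ± 2.07 FPKM at day 8 and 3.32 ± 1.09 FPKM at day 5, and rose by 1.00. Etv2, the early factor of the endothelial and blood lineages, averaged 0.973 FPKM at day 8 and 2.91 FPKM at day 5 and fell by 1.00. It was named after its values were seen. Of 18 blood genes just 5 were tested. Runx1, a factor of blood formation, averaged 5.74 ± 0.752 FPKM at day 8 and 0.427 ± 0.0716 FPKM at day 5 and rose by 2.24, and the adhesion receptor Cd44 rose by 2.67, while Myb fell by 0.91. The embryonic globin Hbb-bh1 was at 0, 0.870 and 0.417 FPKM at day 8, against 0.122, 0 and 0 FPKM at day 5, and the embryonic globin Hba-x at 0.867, 0.676 and 0.156 FPKM at day 8, against 0, 0 and 0 FPKM at day 5. No knockout library of either day reached 1 FPKM of these globins.

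Visceral endoderm genes rose in every member tested. Of 18 visceral endoderm genes, 16 were tested and 16 rose, with a median of 2.47, and 7 of the 16 averaged under 1 FPKM at day 5. Afp had 56.4, 77.9 and 48.8 FPKM at day 8, against 1.64, 2.16 and 2.90 FPKM at day 5 (log2 change 4.25, SE 0.20, adjusted p = 1.24e-06). The apolipoprotein Apoc2 averaged 28.1 ± 6.17 FPKM at day 8 and 0.930 ± 0.355 FPKM at day 5 and Apoa1 24.1 ± 1.03 FPKM at day 8 and 1.80 ± 0.896 FPKM at day 5, and they rose by 3.91 and 3.21. Every day 8 library of these genes exceeded every day 5 library. Of 12 parietal endoderm and basement membrane genes tested, 11 rose, Nid1 by 2.78 and the collagen Col4a2 by 2.72, and 1, the activin antagonist Fst, fell by 2.18. Definitive endoderm genes were mixed, with 3 of 10 tested higher and 4 lower. Foxa2, the pioneer factor of node and endoderm, averaged 16.1 ± 3.04 FPKM at day 8 and 62.3 ± 3.19 FPKM at day 5 and fell by 1.91. Sox17 averaged 4.95 ± 1.16 FPKM at day 8 and 11.0 ± 1.09 FPKM at day 5 and fell by 1.03, while Pyy, the gut peptide YY, averaged 14.1 ± 3.08 FPKM at day 8 and 0.0667 ± 0.0675 FPKM at day 5 and rose by 3.80.

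Most matrix and mesenchymal genes rose. Of 15 collagen and matrix genes tested, of 23 on the list, 13 rose and 1, Adamts9, fell, with a median of 2.32, and 8 of the 15 averaged under 1 FPKM at day 5. The proteoglycan Vcan, versican of the cardiac jelly, averaged 37.0 ± 3.35 FPKM at day 8 and 2.54 ± 0.283 FPKM at day 5 and rose by 3.43. Has2, which makes hyaluronan for the same jelly, averaged 68.3 ± 8.11 FPKM at day 8 and 8.42 ± 0.396 FPKM at day 5 and rose by 2.87. Adamts9, a matrix protease named after its values were seen, averaged 20.9 FPKM at day 8 and 64.1 FPKM at day 5 and fell by 1.57. Of 10 genes of mesenchyme and the epithelial to mesenchymal transition, 9 rose and 0 fell. Tgfb2, a ligand that drives this transition in the heart cushions, averaged 36.4 ± 4.82 FPKM at day 8 and 1.87 ± 0.379 FPKM at day 5 and rose by 3.70, and the factors Zeb1 and Snai2 rose by 2.65 and 2.13. Fn1, fibronectin, had 169, 142 and 211 FPKM at day 8, against 31.8, 33.7 and 26.7 FPKM at day 5 (log2 change 2.45, SE 0.17, adjusted p = 7.54e-06).

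Most imprinted genes rose. Of 24 tested, 15 rose and 5 fell, with a median of 1.45. After Igf2, the largest rises were those of Nnat, neuronatin, with 115 ± 37.1 FPKM at day 8 and 10.2 ± 2.00 FPKM at day 5, Dlk1, a Notch-like ligand, with 11.2 ± 3.60 FPKM at day 8 and 0.444 ± 0.322 FPKM at day 5, and the zinc finger factor Plagl1, with 14.9 ± 1.93 FPKM at day 8 and 0.910 ± 0.0497 FPKM at day 5. H19, the noncoding RNA next to Igf2, had 32.7, 17.6 and 14.6 FPKM at day 8, against 4.08, 2.87 and 3.42 FPKM at day 5 (log2 change 2.27, SE 0.26, adjusted p = 0.000211). Day 8 replicate 1 held the most H19, about as much as the other 2 day 8 libraries together.

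Cell cycle genes fell more often than they rose. Of 28 cell cycle genes, 7 rose and 12 fell, with a median of -0.50. The 7 rises were those of 4 inhibitors, Cdkn2b, Cdkn1c, Cdkn2a and Cdkn1a, and 3 cyclins, Ccnd2, Ccnd3 and Ccne2. The falls included 5 genes of the replicative MCM helicase, Mcm2, Mcm3, Mcm4, Mcm5 and Mcm7. Cdkn1c averaged 39.2 ± 5.47 FPKM at day 8 and 5.10 ± 0.247 FPKM at day 5 and rose by 2.71, and Cdkn2b averaged 9.16 ± 1.79 FPKM at day 8 and 0.156 ± 0.138 FPKM at day 5 and rose by 3.13. As deposited, 15 were lower, but only 7 without knockout day 5 replicate 3. Of 29 nuclear genes of the respiratory chain, 13 fell and 0 rose, with a median of -0.53. The count of lower genes as deposited, 22, was 9, 13 and 6 without day 5 replicates 1, 2 and 3, and 13 and 14 without day 8 replicates 1 and 3. Cox6c, a subunit of cytochrome oxidase, averaged 87.3 ± 28.6 FPKM at day 8 and 172 ± 26.8 FPKM at day 5 and fell by 1.02. Of 21 hypoxia and glycolysis genes, 12 rose and 3 fell. The angiogenic factor Vegfa averaged 51.0 ± 5.62 FPKM at day 8 and 10.7 ± 1.38 FPKM at day 5 and rose by 2.15, and the glucose transporter Slc2a3 averaged 425 ± 32.1 FPKM at day 8 and 146 ± 5.12 FPKM at day 5 and rose by 1.53. Ndrg1, a stress-responsive gene, averaged 4.82 ± 0.665 FPKM at day 8 and 19.3 ± 0.895 FPKM at day 5 and fell by 1.81. The 4 lower genes as deposited became 2 without day 5 replicate 3 and 2 without day 8 replicate 1.

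The same interval in control embryoid bodies was tested in the same way. In control, 2031 (16%) of 12676 genes rose and 2680 (21.1%) fell. As deposited, 16.1% of the control genes were higher and 28.5% lower, 44.6% in all. Among 12382 genes tested in both, 1570 rose in knockout and 1868 in control, and 1257 rose in both, 80.1% of the knockout genes and 67.3% of the control genes. For falls, 1925 in knockout and 2659 in control shared 1471, 76.4% of the knockout genes and 55.3% of the control genes. The difference of the change, the knockout change minus the control change, was tested in 12 libraries. A scale factor of a table cancels in it for genes well above 1 FPKM, but not fully for low genes on log2(FPKM + 1). It passed the threshold in 334 of 12755 genes (2.62%), above 0 in 143 (1.12%) and below 0 in 191 (1.5%). After rescaling 468 passed, 190 above and 278 below 0. A gene that reached the filter of 1 FPKM only through 1 genotype on 1 day had to have a difference away from 0. For such a gene the p-value is no support. Which side holds more genes turned with a pseudocount of 0.1 FPKM, at 138 above and 115 below 0, and with a minimum mean of 5 FPKM, at 80 above and 70 below 0. Without control day 5 replicate 2, 216 genes passed. The count above 0 was 86 without that library, 78 without control day 5 replicate 3, 90 without knockout day 5 replicate 2 and 93 without control day 8 replicate 2.

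Most sarcomere genes had a smaller log2 change in knockout than in control. The difference passed the threshold below 0 for 17 of the 24 sarcomere genes tested and above 0 for 0. Past the threshold or not, it was below 0 for 22. Some of the 24, such as Myl2, were under the filter in knockout and entered through the control libraries. With a pseudocount of 0.1 FPKM, 13 of the 24 passed below 0 and 0 above, and Myh7, Myl4, Tnni1 and Xirp1 no longer passed. The mean of Myh7 was 90.1-fold higher at day 8 than at day 5 in knockout and 88.7-fold higher in control, and its difference was -1.12 with the pseudocount of 1 FPKM and -0.22 with 0.1 FPKM. Over the 22 genes tested in knockout, the list's median change was 2.15 in knockout and 3.88 in control. Tnnt2 averaged 23.9 ± 1.73 FPKM at day 8 and 0.162 ± 0.0785 FPKM at day 5 in knockout, and 168 ± 27.3 FPKM at day 8 and 0.356 ± 0.0995 FPKM at day 5 in control, a difference of the change of -2.53 (SE 0.19, adjusted p = 9.19e-06). Myh6 averaged 11.7 ± 2.14 FPKM at day 8 and 0.431 ± 0.0552 FPKM at day 5 in knockout, and 122 ± 28.6 FPKM at day 8 and 0.910 ± 0.0868 FPKM at day 5 in control, a difference of -2.84 (SE 0.24, adjusted p = 1.71e-05). Actc1 averaged 52.4 ± 12.0 FPKM at day 8 and 9.26 ± 0.698 FPKM at day 5 in knockout, and 304 ± 29.0 FPKM at day 8 and 5.06 ± 0.940 FPKM at day 5 in control, a difference of -3.30 (SE 0.22, adjusted p = 3.71e-06). At day 8 the knockout mean was far below the control mean in all 3 genes. At day 5 it was lower than the control mean for Tnnt2 and Myh6 and higher for Actc1. The ratio of the day 8 mean to the day 5 mean was 147-fold in knockout and 473-fold in control for Tnnt2, 27.1-fold in knockout and 134-fold in control for Myh6, and 5.66-fold in knockout and 60.0-fold in control for Actc1. Slc8a1 had a difference of -2.88 (SE 0.23, adjusted p = 1.12e-05), Tnni3 of -3.06 (SE 0.47, adjusted p = 0.00229), Myl2 of -3.31 (SE 0.32, adjusted p = 4.59e-05) and Rrad, a calcium channel regulator, of -2.80 (SE 0.24, adjusted p = 1.93e-05). Myl2 reached the filter of 1 FPKM only through control day 8, so its p-value is no support for the difference. Rrad averaged 1.87 ± 0.437 FPKM at day 8 and 1.43 ± 0.208 FPKM at day 5 in knockout, and 11.6 ± 1.19 FPKM at day 8 and 0.565 ± 0.330 FPKM at day 5 in control. Mef2c, a heart transcription factor, had a difference of -1.17 (SE 0.24, adjusted p = 0.0148). With a pseudocount of 0.1 FPKM the Mef2c difference was -0.11, and with no filter on low values it did not pass (adjusted p = 0.051). For Myl7 the difference did not pass, at -0.62 (SE 0.31, adjusted p = 0.517), and with a pseudocount of 0.1 FPKM it was 0.25.

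**Figure D4:**
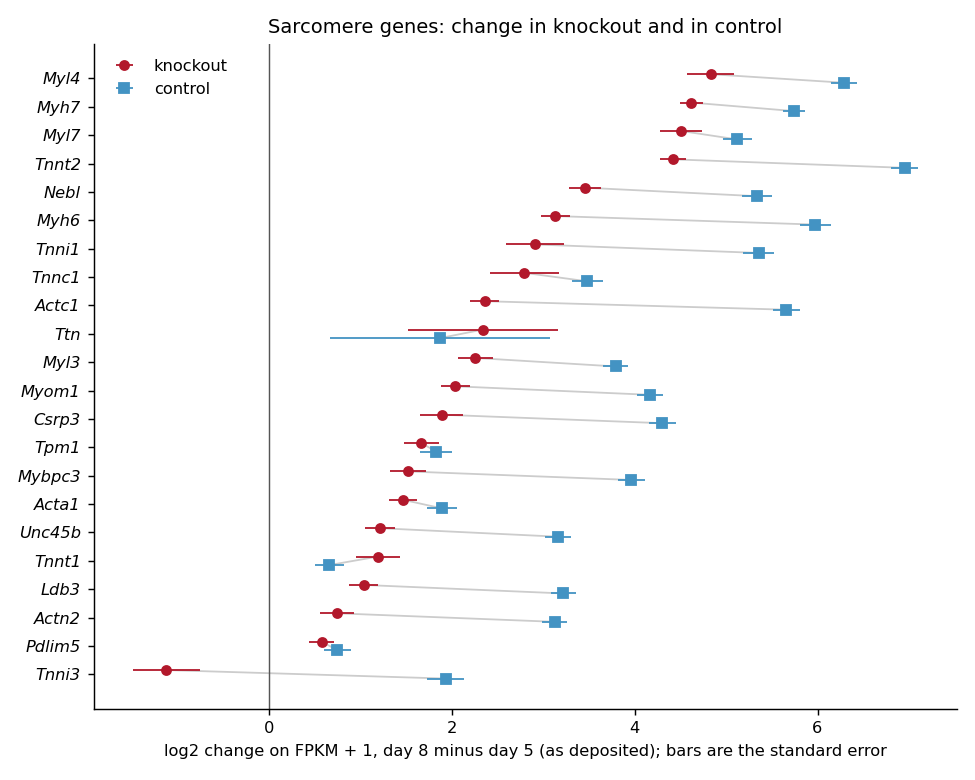
Log2 change on FPKM + 1, day 8 minus day 5, of the 22 sarcomere genes tested in both lines, knockout as circles and control as squares, with standard errors. The knockout point lies left of the control point for all but Ttn and Tnnt1, and Tnni3 alone lies below 0, in knockout.

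The embryonic globins reached higher levels in control by day 8. Hbb-bh1 averaged 0.429 ± 0.435 FPKM at day 8 and 0.0407 ± 0.0705 FPKM at day 5 in knockout, and 15.2 ± 1.46 FPKM at day 8 and 0.104 ± 0.0279 FPKM at day 5 in control, a difference of -3.46 (SE 0.27, adjusted p = 1.05e-05). Hba-x, with 14.4 ± 1.42 FPKM in control at day 8, had a difference of -3.28 (SE 0.24, adjusted p = 8.86e-06). Both globins reached the filter of 1 FPKM only through control day 8, so these p-values are no support for the difference.

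The 8 largest differences above 0 belong to Capn6, Mesp1, Kdr, Lhfp, Dll1, Nxf7, Fgf3 and Fn1, and in each the day 5 mean was lower in knockout than in control. Capn6 averaged 72.8 ± 8.92 FPKM at day 8 and 1.06 ± 0.195 FPKM at day 5 in knockout, and 72.9 ± 6.63 FPKM at day 8 and 19.5 ± 1.80 FPKM at day 5 in control, a difference of 3.31 (SE 0.18, adjusted p = 6.01e-07). Kdr averaged 16.2 ± 2.17 FPKM at day 8 and 0.927 ± 0.0757 FPKM at day 5 in knockout, and 29.0 ± 0.770 FPKM at day 8 and 19.4 ± 2.33 FPKM at day 5 in control, a difference of 2.59 (SE 0.17, adjusted p = 3.71e-06). The lines stood at nearly the same Capn6 level by day 8, while Kdr was still lower in knockout. Fn1 had a difference of 1.89 (SE 0.22, adjusted p = 0.000253) and Nxf7, an RNA export factor relative, of 2.13 (SE 0.30, adjusted p = 0.000888). The FGF ligand Fgf3 had a difference of 2.07 (SE 0.37, adjusted p = 0.00744). Fgf3 rose in knockout and fell in control, and its rise passed in only 2 of the 5 fits without 1 library that could be made. Isl1 had a difference of 1.32 (SE 0.18, adjusted p = 0.000987), which did not pass with a pseudocount of 5 FPKM. Lhfp, a tetraspan membrane protein, went in opposite directions, with 8.02 ± 0.170 FPKM at day 8 and 2.56 ± 0.375 FPKM at day 5 in knockout, and 6.99 ± 1.52 FPKM at day 8 and 16.3 ± 3.00 FPKM at day 5 in control, a difference of 2.46 (SE 0.23, adjusted p = 3.54e-05). Mesp1 and Dll1 fell in control, by 3.39 and 2.22. Mesp1 averaged 0.944 ± 0.540 FPKM at day 8 and 1.32 ± 0.506 FPKM at day 5 in knockout, and 0.637 ± 0.197 FPKM at day 8 and 16.2 ± 2.23 FPKM at day 5 in control, a difference of 3.12 (SE 0.29, adjusted p = 3.52e-05), and Dll1, a Notch ligand of the presomitic mesoderm, averaged 1.14 ± 0.292 FPKM at day 8 and 0.965 ± 0.0837 FPKM at day 5 in knockout, and 1.07 ± 0.474 FPKM at day 8 and 8.45 ± 0.507 FPKM at day 5 in control, a difference of 2.33 (SE 0.24, adjusted p = 8.27e-05). In knockout neither gene passed the threshold between the days. Mesp1 reached the filter of 1 FPKM only through control day 5, so its p-value is no support for the difference.

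Eomes had a difference of 0.78 (SE 0.19, adjusted p = 0.0491), Gata4 of 0.89 (SE 0.19, adjusted p = 0.0238) and Pdgfra of 0.75 (SE 0.18, adjusted p = 0.0398). Of the 12 fits without 1 library, Eomes was not past the threshold in 10, Pdgfra in 9 and Gata4 in 6. Gata4 was lost without knockout day 5 replicate 2, knockout day 8 replicate 1, control day 5 replicates 2 and 3 and control day 8 replicates 2 and 3. Eomes was kept only without knockout day 8 replicate 3 or control day 5 replicate 1, and Pdgfra only without knockout day 5 replicate 3, knockout day 8 replicate 2 or control day 8 replicate 1. For Pou5f1, Nanog, T, Mixl1, Hand1, Hand2, Gata6, Nkx2-5, Afp, Foxa2, Sox17, Pax6, Pecam1 and H19 the difference did not pass, with values from -1.02 for H19 to 1.12 for Hand1.

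The remaining days place this interval in the course, as a description across tables that may not share a scale. At days 0, 3, 5, 8, 10 and 12, Tnnt2 averaged 0.348, 0.0866, 0.162, 23.9, 30.6 and 40.8 FPKM in knockout and 0.987, 0.303, 0.356, 168, 122 and 106 FPKM in control. The knockout mean was highest at day 12 and the control mean at day 8. Kdr averaged 0.469, 0.151, 0.927, 16.2, 12.8 and 12.2 FPKM in knockout and 0.397, 1.69, 19.4, 29.0, 20.3 and 15.7 FPKM in control over the same days. Its largest step up lay between days 5 and 8 in knockout and between days 3 and 5 in control. Mesp1 averaged 0, 0.0324, 1.32, 0.944, 1.13 and 0.250 FPKM in knockout and 0.0682, 0.0622, 16.2, 0.637, 0.0549 and 0.318 FPKM in control, with the control mean far above the knockout mean at day 5. Pou5f1 averaged 598, 398, 341, 82.6, 53.6 and 19.2 FPKM in knockout and 505, 356, 158, 26.0, 15.8 and 24.5 FPKM in control, and its mean was highest at day 0 in both. Hbb-bh1 averaged 0, 0.0160, 0.0407, 0.429, 15.4 and 9.35 FPKM in knockout and 0.0419, 0, 0.104, 15.2, 32.0 and 19.9 FPKM in control, and in knockout it first passed 1 FPKM at day 10.

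**Figure D5:**
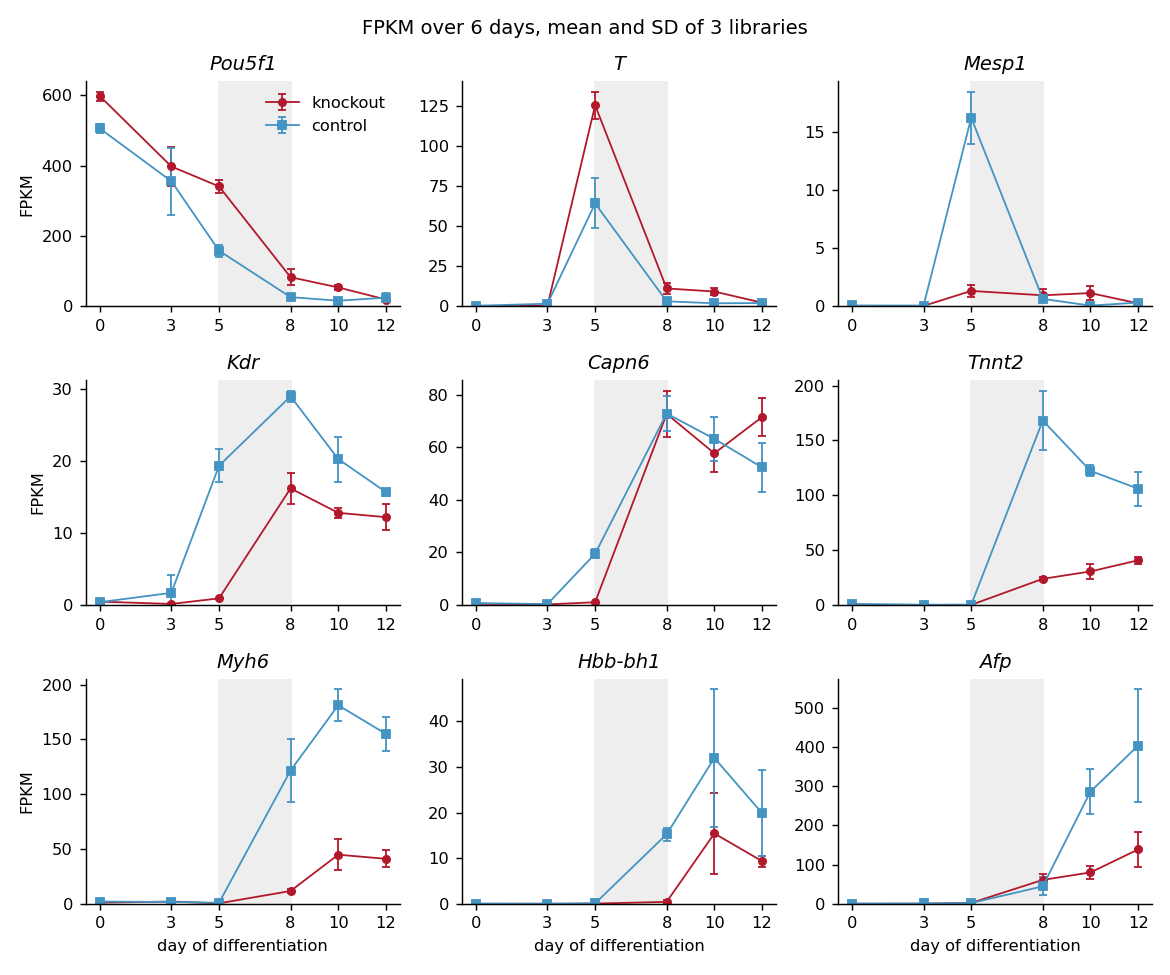
FPKM of 9 genes at days 0, 3, 5, 8, 10 and 12 in knockout and control, mean and SD of 3 libraries, with the interval from day 5 to day 8 shaded. Tnnt2 and Myh6 go up in knockout within the shaded interval but stay below control, Kdr and Capn6 leave the knockout baseline within it, and Mesp1 stays under 2 FPKM in the knockout means.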

How the data were processed

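RNA of whole embryoid bodies was sequenced in 36 libraries, 3 for each genotype and day. The authors deposited FPKM per gene, 1 table a day with 37561 entries. Per the submitters' processing notes, TopHat, Cufflinks and mm9 were used, with no version given. Per the labels' protocols, RNA came from RNeasy columns and libraries from a ScriptSeq kit. The labels name 2 different sequencers. FPKM keep no read counts here, so depth is known only as a ratio between libraries, and no count test was run.

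Groups were taken from the labels, and tables were joined on the gene entry. Values were set to log2(FPKM + 1), which understates changes of low genes, and genes that averaged at least 1 FPKM in the fitted libraries were tested with limma 3.58.1 (R 4.3.3, variance trend, Benjamini-Hochberg adjustment, threshold 0.05). Day 8 minus day 5 was fitted on 6 libraries for each genotype, and the difference of the change on 12. Rescaling used median ratios. The members and gene lists were chosen with earlier results of these data known. Named genes are the 12 highest and 12 lowest changes past the threshold without overlap, with at least 5 FPKM on the higher day and short RNAs left out, up to 4 members of each list, a panel of 30 genes (29 in the tables), and the 8 highest and 8 lowest differences. Promoter windows came from RefSeq. On simulated data for knockout day 8 minus day 5 (12842 genes), 66 of 100 genes with a log2 change of 1 and 96 of 100 with a log2 change of 2 were recovered, and 6 of 12642 unchanged genes were called. The simulated noise was independent between genes and held no shift of a whole library or table. The 6 calls therefore say nothing of errors from such shifts in the real data. Only 200 genes were changed in the simulation, while 37.3% of genes passed in the real data as deposited. The share recovered therefore does not carry over to the real data. Alternatives were pseudocounts of 0.1 and 5 FPKM, no filter, a minimum mean of 5 FPKM, rescaling, a fit over all 36 libraries, a replicate block, no variance trend and leaving out each library. Tables and plots used Python 3.11.15, pandas 2.3.3, numpy 2.4.6 and matplotlib 3.10.9.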

Additional observations from a re-analysis of the deposited data

Results flagged for a closer look

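The difference of the change passed its threshold for 23 genes of the panel and of the 8 highest and 8 lowest differences. It is given as the knockout change minus the control change on the log2 scale of FPKM + 1. The 8 highest and 8 lowest were picked among genes past the threshold, so they had to pass, and the 23 is not a rate. Over all genes, 334 of 12755 (2.62%) passed. Hbb-bh1, Hba-x and Myl2 reached the filter only through control day 8, and Mesp1 only through control day 5. Their p-values are no support for the difference. The difference was above 0 for Capn6 (3.31), Mesp1 (3.12), Kdr (2.59), Lhfp (2.46), Dll1 (2.33), Nxf7 (2.13), Fgf3 (2.07), Fn1 (1.89), Isl1 (1.32), Gata4 (0.89), Eomes (0.78) and Pdgfra (0.75). It was below 0 for Hbb-bh1 (-3.46), Myl2 (-3.31), Actc1 (-3.30), Hba-x (-3.28), Tnni3 (-3.06), Slc8a1 (-2.88), Myh6 (-2.84), Rrad (-2.80), Tnnt2 (-2.53) and Mef2c (-1.17). For the transcript 4930500J02Rik the difference was 1.03, with knockout at or near 0 FPKM on both days and control at 9.33 ± 0.993 FPKM at day 8 and 22.0 ± 2.92 FPKM at day 5, and it was lost without control day 5 replicate 2 or 3.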

How the results depend on the processing

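The count of knockout genes past the threshold stayed within 1.5 times of 4752 under every planned setting that kept all libraries, but its split did not. With a minimum mean of 5 FPKM, 893 of the 8495 genes then tested were higher, against 1610 of 12747. Fewer genes were tested there, and 26.0% of the calls were higher. After rescaling 2442 were higher and 1998 lower, so that 55.0% of the calls were higher, against 33.9% as deposited. For control, 1150 of 8367 genes tested were higher with that minimum and 3218 of 12677 after rescaling. For the difference, a pseudocount of 0.1 FPKM gave 138 genes above and 115 below 0, so that 54.5% were above, against 42.8% with 1 FPKM. With a minimum mean of 5 FPKM, 150 of the 8463 genes then tested passed, 80 above and 70 below 0. Leaving out 1 library gave 2917 to 5518 knockout genes (1219 to 1643 higher, 1698 to 4000 lower), 216 to 336 differences (78 to 151 above 0, 130 to 213 below) and 4008 to 5711 control genes (1738 to 2036 higher, 2183 to 3963 lower, the lowest without control day 5 replicate 3). Differences that turned sign were those of Myl7 (0.25) with a pseudocount of 0.1 FPKM, Nanog (-0.023), Hand1 (-0.052) and Hand2 (-0.40) with 5 FPKM, Nanog (-0.064) without knockout day 8 replicate 2 and Afp (-0.023) without control day 8 replicate 3. Leaving out 1 library gave -0.064 to 0.26 for Nanog and -0.023 to 0.77 for Afp. None of these passed the threshold, and the cause was not tested. With the replicate number as a block, 4399 knockout genes (1540 higher, 2859 lower), 5118 control genes and 279 differences passed. Same-numbered knockout libraries of the 2 days deviated together with correlations of 0.10, 0.15 and -0.03, so the numbers were not taken to pair samples between days. Pairing of knockout with control libraries within a day was not checked. Day 8 replicates 1 and 2 correlated best with their own number and replicate 3 did not. Depth is known only as a ratio between libraries, so a gene near 0 FPKM cannot be called absent.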

Other observations

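Lists not described above showed these counts. All 5 trophoblast genes tested rose. Of 6 neural crest genes tested, 4 rose and 1 fell, and of 6 neural genes, 3 rose. Of 16 epithelial junction and keratin genes tested, 5 rose and 1 fell, and of 10 Notch genes, 3 rose and 1 fell. Of 4 paraxial mesoderm genes tested, 2 rose, and the 1 epicardium gene tested did not pass. None of the 27 Hox genes reached a mean of 1 FPKM, the highest being 0.489 FPKM. Of 14 p53 targets tested, 3 rose and 2 fell, of 16 stress response genes 4 rose, and of 8 genes of RNA quality and dissociation 2 rose. Of 15 genes of DNA methylation and Lin28 tested, 4 rose and 4 fell, of 6 germ cell genes 4 fell, and of 14 immunoproteasome genes 1 rose and 5 fell. Several counts of lower genes as deposited moved by over 1.5 times without 1 knockout library. Of p53 targets 4 were lower, and 1 or 2 when any day 5 replicate or day 8 replicate 1 was left out. Of epithelial genes 3 were lower, and 1 without day 5 replicate 1 or 2 or day 8 replicate 1. Of Notch genes 2 were lower, and 1 without day 5 replicate 2 or 3 or day 8 replicate 2 or 3. Of germ cell genes 5 were lower, and 3 without day 5 replicate 1. Of immunoproteasome genes 8 were lower, with 4 and 5 without day 5 replicates 1 and 2, and the 1 higher became 0 without day 5 replicate 1 or 2 or day 8 replicate 1 or 2. The 4 higher genes of DNA methylation and Lin28 became 2 without day 5 replicate 3, and the 2 of RNA quality became 1 when any library other than day 5 replicate 1 was left out. For neural and stress response genes, 1 lower gene became 0 without day 5 replicate 1, and for stress response genes also without day 5 replicate 2 or 3 or day 8 replicate 1.

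Among 12382 genes tested in both genotypes, 13 passed the threshold in opposite directions on both scales, and they were named after their values were seen. Srl, Fam49a and Mab21l2 fell in knockout and rose in control. Srl, sarcalumenin of the calcium stores, averaged 4.34 ± 1.27 FPKM at day 8 and 10.4 ± 0.906 FPKM at day 5 in knockout, and 12.5 ± 1.16 FPKM at day 8 and 8.78 ± 1.78 FPKM at day 5 in control. Greb1, Cntnap2, Col23a1, Lhfpl2, Syt7, Robo1, Mylip, Fgf3, Greb1l and Lhfp rose in knockout and fell in control. The knockout rise was lost without 1 library for 4 of these. Greb1 did not pass without day 5 replicate 2 or 3 or day 8 replicate 2 or 3, and Cntnap2, whose days overlapped, not without day 5 replicate 2 or 3 or day 8 replicate 1 or 2. Col23a1 did not pass without day 5 replicate 1 or 3, nor Fgf3 without any 1 day 5 replicate. Robo1, a guidance receptor, averaged 12.0 ± 0.764 FPKM at day 8 and 6.22 ± 0.718 FPKM at day 5 in knockout, and 9.86 ± 0.348 FPKM at day 8 and 18.2 ± 1.18 FPKM at day 5 in control.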
